A study of Rattus norvegicus with 5 samples.

Results

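The genes described here build, hold together, bind or break down hyaluronan in the skin: the hyaluronan synthases Has1 and Has2, the hyaluronan-degrading surface protein Cemip2, the matrix organisers Tnfaip6 and Ptx3, the proteoglycan Vcan, and the receptor Cd44. They were picked by symbol from the gene table, and each of the 7 symbols matched exactly 1 of its 32623 rows, which carry 30017 symbols. The choice was made with measured levels of some of them in irradiated fibroblasts already known, so the levels below are a description and no test was made of them. Single cells of skin from SD rats, an outbred laboratory strain, were profiled by droplet RNA sequencing in 5 libraries, 1 per group: 7, 14, 28 and 60 d after irradiation (IR_7d, IR_14d, IR_28d, IR_60d), and control. According to the study's methods the rats were male, the shaved buttock received a single dose from an electron beam, and control was another piece of skin without radiation. The libraries carry no genotype difference, the methods do not say whether a library held 1 animal or several, and the 60 d library appears in the sample labels but not in the study's text. With 1 library per group, irradiation cannot be told apart from differences between animals, dissociations and libraries.

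Hyaluronan is a long, unsulfated sugar chain that the synthases extrude directly through the plasma membrane from activated glucuronic acid and N-acetylglucosamine, and dermal fibroblasts are its main source in skin. Tnfaip6 (TSG-6) transfers heavy chains of inter-alpha-inhibitor onto the chain, the pentraxin encoded by Ptx3 binds this complex and helps to cross-link it, and versican, encoded by Vcan, anchors its core protein to hyaluronan. Tnfaip6, Ptx3 and Has1 are known as genes that inflammatory cytokines induce in fibroblasts, Cd44 carries the hyaluronan signal into the cell, and Cemip2 is known from work in mouse and human cells for cutting hyaluronan at the cell surface.

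Promoters are shown for Tnfaip6 and Ptx3, the members at least 2-fold lower than control in fibroblasts at all 4 times, and for Has1, which was near control at 7 d. They come from RefSeq on rat build GRCr8, which differs from the build of the counts (Rnor_6.0), and run from 250 bases before to 50 bases after the annotated start. RefSeq windows were found for 5 of the 7 members, with none for Has2 and Cemip2 in the table used. The Tnfaip6 window is chr3:56911148-56911447 on the plus strand, the Ptx3 window chr2:152797313-152797612 on the plus strand, and the Has1 window chr1:67378395-67378694 on the minus strand. Capitals mark matches, on either strand, to AP-1 (TGANTCA), the cyclic AMP response element CRE (TGACGTCA) or a loose kappaB pattern (GGG, any 5 bases, CC).
Tnfaip6: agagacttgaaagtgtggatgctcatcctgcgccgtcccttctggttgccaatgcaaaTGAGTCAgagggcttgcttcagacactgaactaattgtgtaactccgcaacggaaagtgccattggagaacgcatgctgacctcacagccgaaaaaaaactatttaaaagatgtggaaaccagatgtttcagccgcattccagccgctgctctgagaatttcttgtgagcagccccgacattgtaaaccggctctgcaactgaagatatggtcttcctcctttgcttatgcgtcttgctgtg
Ptx3: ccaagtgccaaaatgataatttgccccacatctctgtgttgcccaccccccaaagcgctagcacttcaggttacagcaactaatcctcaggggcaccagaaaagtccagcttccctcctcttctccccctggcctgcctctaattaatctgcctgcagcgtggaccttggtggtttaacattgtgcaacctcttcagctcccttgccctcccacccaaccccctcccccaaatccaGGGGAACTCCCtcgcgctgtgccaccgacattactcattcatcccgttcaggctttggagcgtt
Has1: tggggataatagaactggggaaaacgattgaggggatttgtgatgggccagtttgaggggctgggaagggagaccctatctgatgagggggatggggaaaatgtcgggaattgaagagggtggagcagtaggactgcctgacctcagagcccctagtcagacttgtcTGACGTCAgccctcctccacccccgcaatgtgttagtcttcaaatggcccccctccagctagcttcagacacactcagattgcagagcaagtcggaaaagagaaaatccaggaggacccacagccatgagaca
The Tnfaip6 window held 1 AP-1 match, which began 192 bases before the start, and no other match. The Ptx3 window held 2 kappaB matches that overlap each other by all but 1 base and began 14 and 13 bases before the start. The Has1 window held 1 CRE match, 83 bases before the start. Of all 33469 RefSeq windows of this length, 7.33% held the AP-1 pattern, 1.83% held the CRE and 47.3% held the kappaB pattern, so the last is common. These letters are a description of the windows, and binding was not measured.

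The 5 libraries held 6012 to 12239 barcodes and 70073362 to 139566348 UMIs (unique molecular identifiers, 1 per captured RNA molecule), with 4082 to 11650.5 UMIs in the median barcode. Cells were assigned to a class by marker genes, and 84.5% to 95.6% of the cells that passed the filters fell into 1 class. Between 11 and 41 barcodes were shared by any pair of libraries, 0.183% to 0.382% of the smaller one. Fibroblasts numbered 3171 in control, 6556 (7 d), 71 (14 d), 503 (28 d) and 540 (60 d), so the 14 d fibroblast values rest on few cells. UMIs were summed per class and library and are given as CPM, scaled so that each such sum is 1000000. In fibroblasts the summed fibroblast markers (such as Dcn, Lum and Col1a1) were between 75162 and 87826 CPM, and the keratinocyte markers between 1117 and 2868 CPM. Levels are given with exact Poisson 95% intervals, and folds with exact conditional 95% intervals. Both cover counting error only. Transcripts were tagged at the 3′ end, so levels are compared between libraries and classes for 1 gene, not between genes.

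In fibroblasts, the members fell into a group that was lower at every time after irradiation (Tnfaip6 and Ptx3, with Cemip2 lower in value at every time too) and a group that stayed within 2-fold of control (Has1 and Has2), while Vcan and Cd44 were past 2-fold lower only at the late times. By a rule of size, at least 2-fold with at least 50 UMIs in the 2 libraries together, 3 of 7 members were lower at 7 d (Cemip2, Tnfaip6, Ptx3), 2 at 14 d (Tnfaip6, Ptx3), 4 at 28 d (Cemip2, Tnfaip6, Ptx3, Cd44) and 5 at 60 d (the same 4 and Vcan). Of all genes that could be compared, 2.35% were at least 2-fold lower at 7 d, 10.3% (14 d), 6.77% (28 d) and 7.74% (60 d). No member was at least 2-fold higher at any of the 4 times, where 6.13%, 11%, 12% and 12.5% of all genes were at 7, 14, 28 and 60 d. The median log2 ratio of the 7 members was -0.96, -0.24, -1.33 and -2.35 at 7, 14, 28 and 60 d, beside 0.12, 0.00, 0.15 and 0.22 over all genes. Since the members were chosen with such values in view, nothing is read from these shares.

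**Figure D1:**
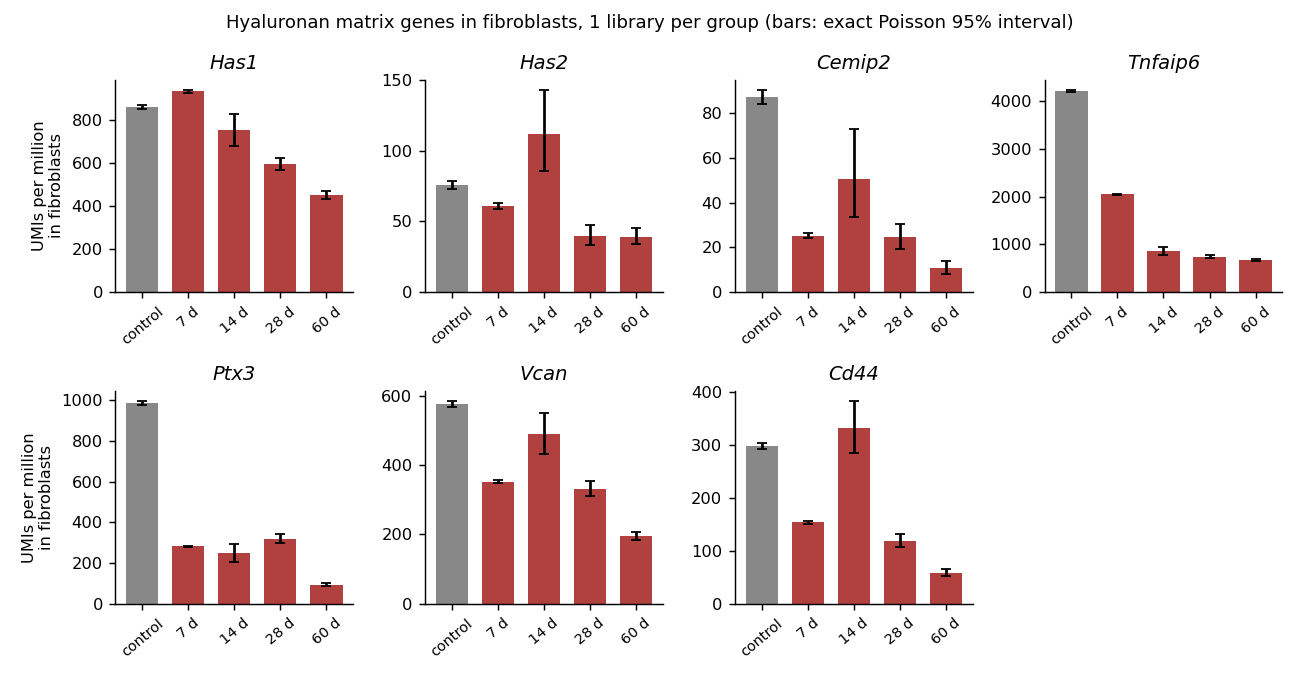
Levels of the 7 genes in fibroblasts, in CPM (vertical axes from 0, one scale per gene), for the control library (grey) and the libraries 7, 14, 28 and 60 d after irradiation (red). Bars are 1 library each and whiskers exact Poisson 95% intervals; Tnfaip6 was at 2046 CPM (7 d) and 667 CPM (60 d) against 4213 CPM in control, and Has1 at 932 CPM at 7 d against 859.9 CPM in control.

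Of the synthases, Has1 was near control early and lower late. Has1 was at 859.9 CPM (850 to 869.5) in control, 932 (7 d, 925 to 939.8), 752 (14 d, 681 to 827), 596 (28 d, 569 to 624) and 452 (60 d, 432 to 471). The 7 d library was 1.08-fold above control (1.07 to 1.10), and the 60 d library 1.90-fold below it (1.82 to 1.99). Has2, the synthase that heart development needs in mouse, was at 75.5 CPM in control, 60.7 (7 d), 111 (14 d), 39.8 (28 d) and 39.3 (60 d). The 14 d value rests on 62 UMIs with an interval of 85.5 to 143, and it was the only Has2 value above control. Has3, the third synthase, was barely present in fibroblasts, at 0.692 CPM in control, 0.657 (7 d), 0 (14 d), 0.978 (28 d) and 1.97 (60 d), from 0 to 42 UMIs per library.

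Cemip2 was lower than control in all 4 irradiated libraries. It was at 87.2 CPM (84.1 to 90.2) in control, 25.2 (7 d, 24.0 to 26.5), 50.4 (14 d, 33.5 to 72.8), 24.4 (28 d, 19.2 to 30.6) and 10.7 (60 d, 7.92 to 14.2). The fold below control was 3.46 (7 d, 3.25 to 3.67), 1.73 (14 d, 1.20 to 2.61), 3.57 (28 d, 2.84 to 4.54) and 8.15 (60 d). None of the 4 irradiated intervals reached that of control, and the 14 d value, from 28 UMIs, was the nearest to it. Its relative Cemip, a protein known for hyaluronan breakdown in human skin fibroblasts, was at 1.97 CPM in control, 0.672 (7 d), 25.2 (14 d), 29.0 (28 d) and 0 (60 d). Both genes were thus lower than control at 7 and 60 d, and Cemip was higher at 14 and 28 d, with its values resting on 0 to 89 UMIs per library.

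Tnfaip6 and Ptx3, the pair that builds cross-links on hyaluronan, were both lower at each time, with different courses. Tnfaip6 was at 4213 CPM (4192 to 4234) in control, 2046 (7 d, 2035 to 2057), 858 (14 d, 782 to 938), 747 (28 d, 716 to 778) and 667 (60 d, 643 to 691). The fold below control was 2.06 (7 d, 2.04 to 2.07), 4.91 (14 d, 4.49 to 5.38), 5.64 (28 d, 5.41 to 5.88) and 6.32 (60 d, 6.10 to 6.55), so each later library was lower than the one before, with intervals that did not overlap. Ptx3 was at 985 CPM (974 to 995) in control, 281 (7 d, 277 to 285), 246 (14 d, 207 to 291), 319 (28 d, 299 to 339.7) and 93.5 (60 d, 84.8 to 103). The 7, 14 and 28 d libraries were within a narrow band, 3.09- to 3.997-fold below control, and the 60 d library was 10.5-fold below it (9.58 to 11.6).

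Vcan and Cd44 had a dip at 7 d, a value near control at 14 d, and their lowest level at 60 d. Vcan was at 576 CPM in control, 352 (7 d), 489 (14 d), 331 (28 d) and 195 (60 d). Its fold below control was 1.64 (7 d, 1.61 to 1.67), 1.18 (14 d, 1.05 to 1.33), 1.74 (28 d, 1.63 to 1.85) and 2.96 (60 d, 2.77 to 3.17). Cd44 was at 298 CPM in control, 153 (7 d), 331 (14 d), 118 (28 d) and 58.5 (60 d). At 14 d the Cd44 interval of 285 to 382 spanned the control level, and at 60 d the level was 5.09-fold below control (4.51 to 5.77). Scaling by the median ratio over genes in place of total UMIs shifts fibroblast log2 ratios down by the 0.09, 0.04, 0.11 and 0.20 it gives all genes at 7, 14, 28 and 60 d, and puts Cd44 past 2-fold lower at 7 d (-1.05 on the log2 scale), Has2 at 28 d (-1.04), and Has1 and Has2 at 60 d (-1.13 and -1.14). The share of higher genes among all calls was 53.5% with that scaling and 63.9% with total UMIs at 28 d, and 43.3% and 61.8% at 60 d.

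The share of fibroblasts with a UMI moved the same way as the summed level for most members. To compare libraries of different depth, each cell was thinned to 1000 UMIs, which left out 153, 4, 4 and 14 fibroblasts at 7, 14, 28 and 60 d, and 99 in control. After thinning, a Tnfaip6 UMI was found in 74.1% of fibroblasts in control, 57.8% (7 d), 40.3% (14 d), 30.9% (28 d) and 27.4% (60 d). Unthinned, at median depths of 11846, 9270.5, 6904, 4785 and 7613.5 UMIs, the shares were 91.5% in control, 85.8% (7 d), 69.0% (14 d), 56.3% (28 d) and 60.4% (60 d). T and NK cells, which should lack Tnfaip6, had a thinned share of 8.64% in control and 13.8% at 7 d, and 0% at 14, 28 and 60 d, where their 357, 320 and 203 cells leave upper 95% limits of 1.03%, 1.15% and 1.80%. Unthinned, their shares were 37.0% in control, 54.0% (7 d), 0.277% (14 d), 0.898% (28 d) and 1.48% (60 d), at median depths of 4426, 4991, 4079, 1919.5 and 3694 UMIs. Fibroblast shares were thus above this background in every library, and the background itself was far higher in control and at 7 d than later. It was not subtracted.

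The share of fibroblasts with a Ptx3 UMI was lower than in control in all 4 irradiated libraries. Its thinned share was 30.4% of fibroblasts in control, 13.9% (7 d), 8.96% (14 d), 12.4% (28 d) and 3.99% (60 d), and 0% of T and NK cells in all 5 libraries, with upper 95% limits between 1.03% and 4.45%. Unthinned, the fibroblast share was 51.3% in control, 30.9% (7 d), 23.9% (14 d), 24.9% (28 d) and 11.9% (60 d). The remaining RNA was also more concentrated: the 10% of fibroblasts with the most Ptx3 held 60.0% of its UMIs in control, 79.1% (7 d), 78.1% (14 d), 84.4% (28 d) and 97.4% (60 d). Has1 had a thinned share of 43.8% in control, 43.1% (7 d), 37.3% (14 d), 28.7% (28 d) and 21.9% (60 d), the same order as its level apart from the first 2 libraries. The thinned share of Vcan was 16.6% to 26.3% after irradiation against 35.4% in control, that of Cd44 5.51% to 22.4% against 24.3%, that of Cemip2 1.14% to 4.48% against 7.39%, and that of Has2 2.81% to 7.46% against 5.63%.

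Members tended to be found in the same fibroblasts in the libraries with the most of these cells. In thinned cells, all 21 pairs of members were found together more often than the product of their separate shares at 7 d (1.04 to 1.34 times) and in control (1.09 to 1.45 times). At 14, 28 and 60 d this held for 16, 16 and 13 of the 21 pairs, and the other 5, 5 and 8 were below the product, several with 0 cells that held both genes. At 7 d 10.1% of fibroblasts had both Tnfaip6 and Ptx3, with 8.07% given by the product, and in control 26.5% had both, with 22.5% given by it. Fibroblasts with a UMI of Cxcl3, a neutrophil-attracting chemokine, were 9.01% of fibroblasts at 7 d and 38.1% in control, a split made after the data were seen. Ptx3 was at 466 CPM in these cells and 261 CPM in the others at 7 d, against 1555 and 512 CPM in control. Tnfaip6 was at 3180.2 and 1806 CPM at 7 d, against 5883 and 2979 CPM in control. Cemip2 was at 57.2 CPM with Cxcl3 and 24.2 CPM without it at 7 d, against 139 and 48.4 CPM in control. For Has1 the values were 1308 and 898 CPM at 7 d, against 1074 and 755 CPM in control. Within both kinds of cell, Ptx3, Cemip2 and Tnfaip6 were lower at 7 d than in control, and Has1 was higher.

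Finer marker gates divided the fibroblasts further. Fascia-like fibroblasts (Pi16, Dpp4 and Cd248 among their markers) were 70.2% to 74.97% of fibroblasts after irradiation and 76.7% in control, so their share differed little between libraries. In them Tnfaip6 was at 4255 CPM in control, 2179 (7 d), 937 (14 d), 635 (28 d) and 667 (60 d), and Ptx3 at 1036, 319, 283, 393 and 93.0 CPM in the same order. Has1 in fascia-like cells was 1.17-fold above control at 7 d (1.15 to 1.19), and Cemip2 3.55-fold below it (3.32 to 3.81). Dermal papilla-like cells (245 at 7 d, 82 in control), which sit at the base of the hair follicle, differed in Vcan, a gene long used to mark this structure. Vcan was at 389 CPM at 7 d against 2212 CPM in control in these cells, 5.68-fold lower (5.24 to 6.17), and Tnfaip6 at 902 CPM at 7 d against 508 CPM in control, 1.78-fold higher (1.58 to 2.01). The share of these cells with a Vcan UMI went the other way, 84.5% at 7 d and 73.2% in control. Median depths were 8156 and 6998.5 UMIs. Papillary-like cells (51 in control) had Vcan at 543 CPM at 7 d against 405 CPM in control, 1.34-fold higher (1.16 to 1.55), and Tnfaip6 at 1373 CPM at 7 d against 2187 CPM in control, 1.59-fold lower (1.49 to 1.70). In papillary-like cells Has1 at 7 d was 1.75-fold lower than control (1.48 to 2.04), and Has2 1.59-fold higher (1.08 to 2.44). Has2 in fascia-like cells was 1.33-fold lower at 7 d (1.26 to 1.40). The Tnfaip6, Vcan, Has1 and Has2 differences at 7 d thus had opposite signs in different gates. Each compares single libraries, with few control cells in the dermal papilla-like and papillary-like gates.

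Genes that tissue dissociation raises (11 measured of the list, such as Fos, Jun and Atf3) stood apart between the fibroblast libraries. Their summed level was 11529.5 CPM in control, 32559.8 (7 d), 20329 (14 d), 36070.1 (28 d) and 42389.5 (60 d), and their part in the member values was not tested. Fibroblasts with at most 1% of their UMIs from that list, a selection made after the data were seen, were 16.6% to 33.8% of fibroblasts after irradiation and 64.3% in control. In these cells Tnfaip6 was at 4846 CPM in control, 2130 (7 d), 622 (28 d) and 80.7 (60 d), and Ptx3 at 1276 CPM in control, 417 (7 d), 301 (28 d) and 0 (60 d). In these cells 3 members were at least 2-fold lower at 7 d (Cemip2, Tnfaip6, Ptx3), 4 at 28 d (Has1, Cemip2, Tnfaip6, Ptx3) and 6 at 60 d (all but Has2), beside 2.76%, 8.34% and 9.55% of all genes. At least 2-fold higher were 0 members at each of these times, beside 5.99%, 22.1% and 26.9% of all genes. Cd44 at 28 d, past 2-fold lower in all fibroblasts, had a log2 ratio of -0.62 in them. Has1 also differed from its course in all fibroblasts: it was at 843 CPM in control, 786 (7 d), 114 (28 d) and 35.5 (60 d), while in all fibroblasts it stayed within 2-fold of control. The 28 and 60 d values rest on 87 and 104 cells, and at 14 d only 24 cells remained.

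The wider hyaluronan pathway was read from a list of 41 genes, of which 40 were in the table. In fibroblasts 28 could be compared at 7 d and 23 at each later time. At least 2-fold lower at 7, 14, 28 and 60 d were 3, 3, 5 and 8 of these (10.7%, 13.0%, 21.7% and 34.8%), beside 2.35%, 10.3%, 6.77% and 7.74% of all genes. At least 2-fold higher at these times were 5, 4, 5 and 2 (17.9%, 17.4%, 21.7% and 8.70%), beside 6.13%, 11%, 12% and 12.5% of all genes. The list's median log2 ratio was -0.17, 0.05, 0.07 and -0.21 at 7, 14, 28 and 60 d, beside 0.12, 0.00, 0.15 and 0.22 over all genes. The list was drawn up with earlier results known, and nothing is read from these shares. Of the genes past 2-fold lower, 0 of 3 at 7 d, 3 of 3 at 14 d, 4 of 5 at 28 d and 5 of 8 at 60 d supply precursors to the synthases (Ugdh, Ugp2, Uap1, Gfpt1 and Gfpt2). Ugdh, which makes UDP-glucuronic acid, was at 1093 CPM in control, 590 (7 d), 523 (14 d), 266 (28 d) and 173 (60 d), with log2 ratios of -0.89, -1.06, -2.04 and -2.66. Gfpt2, an entry enzyme of the hexosamine route, was at 957 CPM in control, 601 (7 d), 453 (14 d), 213 (28 d) and 127 (60 d). Uap1, which makes UDP-N-acetylglucosamine, was at 532 CPM in control, 268 (7 d), 568 (14 d), 123 (28 d) and 107 (60 d). The course of Ugdh and Gfpt2 ran lower with each later library, whereas Uap1 at 14 d was close to control.

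**Figure D2:**
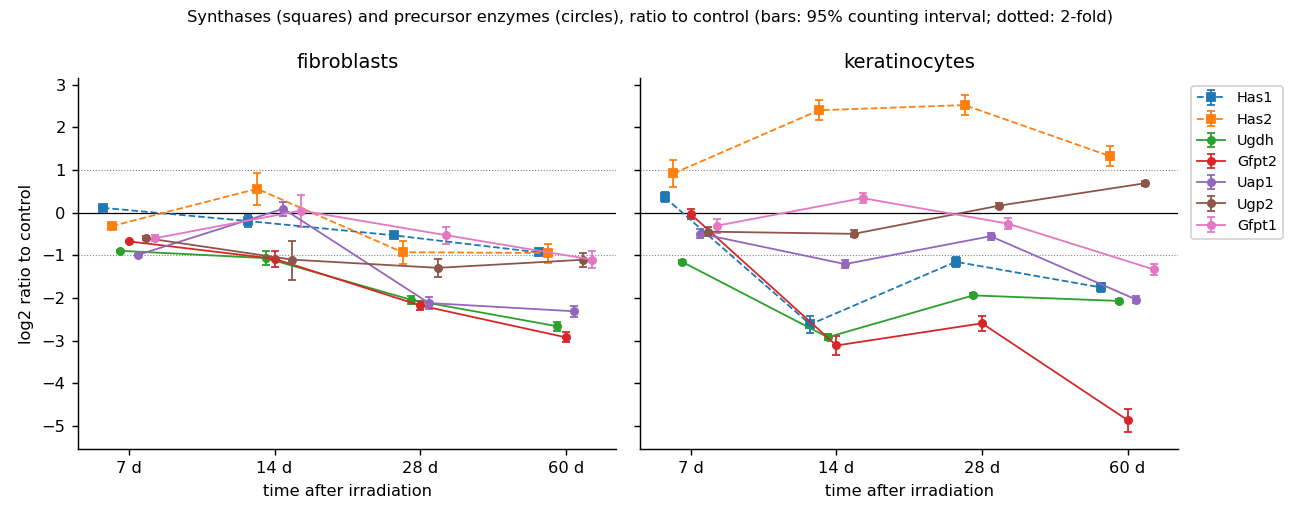
Log2 ratio of each irradiated library to control (vertical axis) by time after irradiation (horizontal axis, evenly spaced libraries), for the synthases Has1 and Has2 (squares) and the precursor enzymes Ugdh, Gfpt2, Uap1, Ugp2 and Gfpt1 (circles) in fibroblasts and keratinocytes. Whiskers are 95% counting intervals and dotted lines mark 2-fold; in fibroblasts Ugdh was at -2.66 and Gfpt2 at -2.92 at 60 d, and in keratinocytes Has2 was at 2.53, Has1 at -1.15 and Ugdh at -1.94 at 28 d.

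Ugp2, which makes UDP-glucose, was past 2-fold lower at 14, 28 and 60 d (log2 ratios of -1.10, -1.29 and -1.10), and Gfpt1, the paralog of Gfpt2, at 60 d (-1.10). Among the proteases that cut versican and related proteoglycans, Adamts4 was at 290.5 CPM in control, 165 (7 d), 218 (14 d), 118 (28 d) and 44.5 (60 d). Adamts15, another protease of this family, went the other way, with 8.17 CPM in control, 25.1 (7 d), 71.9 (14 d), 34.9 (28 d) and 26.4 (60 d), log2 ratios of 1.62, 3.14, 2.09 and 1.69. Of the classical hyaluronidases, Hyal1 was at or below 1.31 CPM in every fibroblast library, and Hyal2 was at 1.80 CPM in control, 2.89 (7 d), 0 (14 d), 5.87 (28 d) and 7.21 (60 d). Both were thus near the lower end of what these libraries can measure.

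Keratinocytes, with 1803 to 6695 cells per library, carried a different part of the system, with Cd44 and Has2 higher after irradiation. By the same rule of size, 1 of 7 members was at least 2-fold higher at 7 d (Cd44), 2 at 14 d and 2 at 28 d (Has2, Cd44), and 1 at 60 d (Has2). Of all genes compared in keratinocytes, 7.39% were at least 2-fold higher at 7 d, 8.41% (14 d), 6.53% (28 d) and 3.5% (60 d). The number at least 2-fold lower was 0 at 7 d, 4 at 14 d (Has1, Tnfaip6, Ptx3, Vcan), 3 at 28 d (Has1, Tnfaip6, Ptx3) and 4 at 60 d (Has1, Tnfaip6, Ptx3, Vcan). Of these, Tnfaip6, Ptx3 and Vcan did not exceed background RNA in control keratinocytes, as described below. Among all genes 5.63%, 31%, 16.3% and 16.6% were at least 2-fold lower at 7, 14, 28 and 60 d. The median log2 ratio of all genes in keratinocytes was -0.44 at 14 d. Scaling by the median ratio moves log2 ratios down by 0.13 at 7 d. It moves them up by 0.35, 0.20 and 0.19 at 14, 28 and 60 d. With that scaling the share of higher genes among all calls was 46.2%, 38.6%, 39.4% and 30.1% at 7, 14, 28 and 60 d, in place of 56.7%, 21.3%, 28.6% and 17.4%. Cd44 and Has2 remained on the same side of 2-fold under both scalings, and Has1 at 28 d came within 2-fold with the median ratio (-0.95 in place of -1.15 on the log2 scale).

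Cd44, the receptor, was at 109.9 CPM (107 to 112) in control keratinocytes, 265 (7 d, 259 to 271), 321 (14 d, 316 to 326), 307 (28 d, 303 to 311) and 119.9 (60 d, 118 to 122). It was 2.41-fold (2.33 to 2.49) above control at 7 d, 2.92-fold (2.84 to 3.003) at 14 d and 2.79-fold (2.72 to 2.87) at 28 d, and 1.09-fold (1.06 to 1.12) at 60 d. The 3 early libraries were thus set apart from both control and 60 d. The thinned share of keratinocytes with a Cd44 UMI was 9.83% in control, 23.3% (7 d), 27.2% (14 d), 25.3% (28 d) and 10.2% (60 d), and the unthinned share 50.6%, 80.8%, 80.3%, 77.5% and 67.1% in the same order. In fibroblasts of the same libraries Cd44 was lower than control at 7, 28 and 60 d. The summed stress list in keratinocytes was 20657 CPM in control, 20056 (7 d), 5148 (14 d), 11785 (28 d) and 16862 (60 d), and its part was not tested.

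Has2 was low in keratinocytes in every library, at 3.02 CPM (2.61 to 3.49) in control, 5.73 (7 d, 4.89 to 6.67), 16.0 (14 d, 15.0 to 17.1), 17.4 (28 d, 16.5 to 18.4) and 7.58 (60 d, 7.11 to 8.08). The fold above control was 1.90 (1.53 to 2.35), 5.29 (4.51 to 6.22), 5.76 (4.93 to 6.75) and 2.51 (2.14 to 2.95) at 7, 14, 28 and 60 d. Has3, the synthase usually linked with the epidermis, was at 5.26 CPM in control, 3.14 (7 d), 13.4 (14 d), 29.8 (28 d) and 10.3 (60 d), log2 ratios of -0.74, 1.35, 2.50 and 0.97. Over the class as a whole Has2 and Has3 had their highest value at 28 d. Basal cells were 36.6% of keratinocytes at 14 d and 52.3% at 28 d, beside 56.0% in control. Ugdh in keratinocytes was at 274 CPM in control, 124 (7 d), 36.3 (14 d), 71.6 (28 d) and 65.5 (60 d). Has1 was at 26.0 CPM in control keratinocytes, 33.5 (7 d), 4.24 (14 d), 11.7 (28 d) and 7.73 (60 d), log2 ratios of 0.36, -2.61, -1.15 and -1.75. At 14, 28 and 60 d Has2 and Has3 were thus higher than control where Ugdh was lower, whereas Has1 was lower as Ugdh was. In control, Has1 was at 3.02% of its fibroblast level, little above the 1.18% to 2.56% of background RNA described below. That background was lower at 14, 28 and 60 d and was not subtracted, and its part in the Has1 values was not tested.

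The increase of Has2 was larger in basal keratinocytes (Krt5, Krt14 and Krt15 among their markers) than in suprabasal ones. In basal cells Has2 was at 2.94 CPM in control, 8.32 (7 d), 36.3 (14 d), 27.0 (28 d) and 10.2 (60 d), while in suprabasal cells (Krt1 and Krt10) it was at 1.78, 1.41, 5.22, 4.75 and 0.889 CPM in the same order. Within both layers the highest Has2 value was thus at 14 d, with basal intervals of 33.7 to 39.1 (14 d) and 25.4 to 28.8 (28 d) and suprabasal intervals that overlap. The basal fold above control was 12.4 at 14 d (9.97 to 15.5) and 9.21 at 28 d (7.45 to 11.5), and the suprabasal fold 2.93 (1.97 to 4.49) and 2.67 (1.78 to 4.13). Cd44 differed in both layers. In basal cells it was at 138 CPM in control, 251 (7 d), 328 (14 d), 320.3 (28 d) and 129.9 (60 d), and in suprabasal cells at 84.6 CPM in control, 279 (7 d), 318 (14 d), 306 (28 d) and 109 (60 d). The suprabasal fold was larger, 3.75 (3.55 to 3.97) at 14 d beside a basal 2.38 (2.29 to 2.47). Upper hair follicle cells were 1.10% to 11.1% of keratinocytes after irradiation and 22.5% in control, so the makeup of the class differed as well, and the values within basal and suprabasal gates do not depend on that share.

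**Figure D3:**
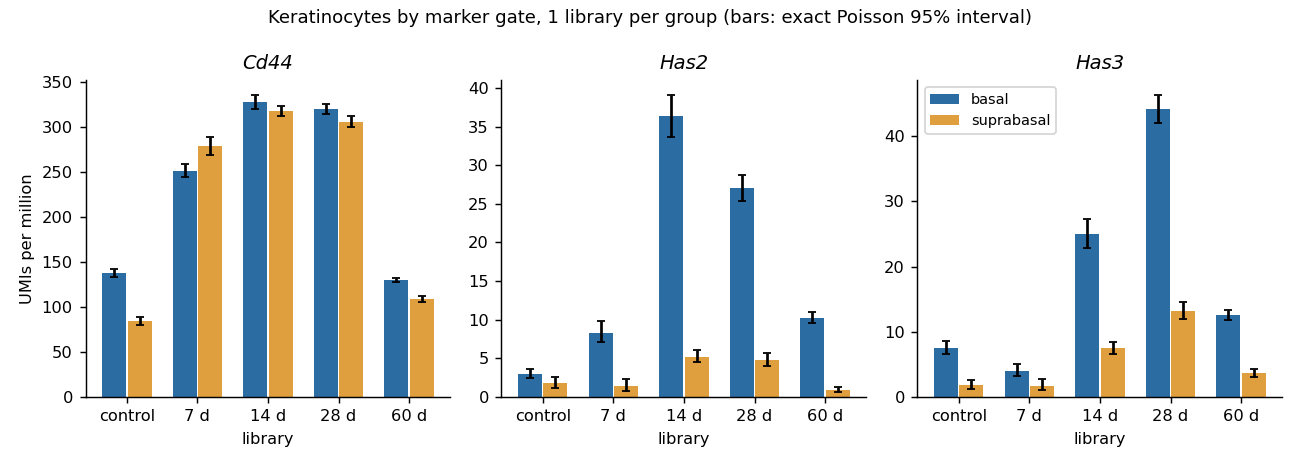
Levels of Cd44, Has2 and Has3 in CPM (vertical axes from 0, one scale per gene) in basal (blue) and suprabasal (orange) keratinocytes, for control and for 7, 14, 28 and 60 d after irradiation. Bars are 1 library each and whiskers exact Poisson 95% intervals; basal Has2 was at 36.3 CPM (14 d) and 27.0 CPM (28 d) against 2.94 CPM in control.

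Tnfaip6 and Ptx3 in keratinocytes did not exceed the range of background RNA in any library. Whether their values there were background was not tested. Tnfaip6 was at 73.3 CPM in control keratinocytes, 77.7 (7 d), 1.55 (14 d), 4.15 (28 d) and 3.65 (60 d). In droplet data RNA freed from broken cells enters all droplets, and 6 fibroblast genes outside the gate (Serpinf1, Mfap5, Ccdc80, Pcolce, Fstl1 and Mmp2, chosen after the data were seen) show its size. Their level in keratinocytes, as a share of their fibroblast level, ran between 1.18% and 2.56% in control. It ran between 2.34% and 5.70% at 7 d, 0.0152% and 0.330% at 14 d, 0.178% and 0.955% at 28 d, and 0.226% and 0.796% at 60 d. Tnfaip6 was at 1.74%, 3.80%, 0.181%, 0.556% and 0.548% in the same order, and Ptx3 at 1.27%, 2.71%, 0.0357%, 0.218% and 0.381%, inside that range in all 5 libraries. Has1 was above the range in control (3.02%) and at 14, 28 and 60 d (0.565%, 1.97% and 1.71%), and inside it at 7 d (3.59%). Vcan was above it at 28 d (3.24%) and 60 d (0.840%), and inside it in control (2.31%), at 7 d (3.27%) and at 14 d (0.266%). Its ratios in keratinocytes are thus taken to a control level that did not exceed background RNA. Cd44, Has2 and Cemip2 were above the range in all 5 libraries, with Has2 at 4.01% in control, 9.44% (7 d), 14.3% (14 d), 43.8% (28 d) and 19.3% (60 d).

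**Figure D4:**
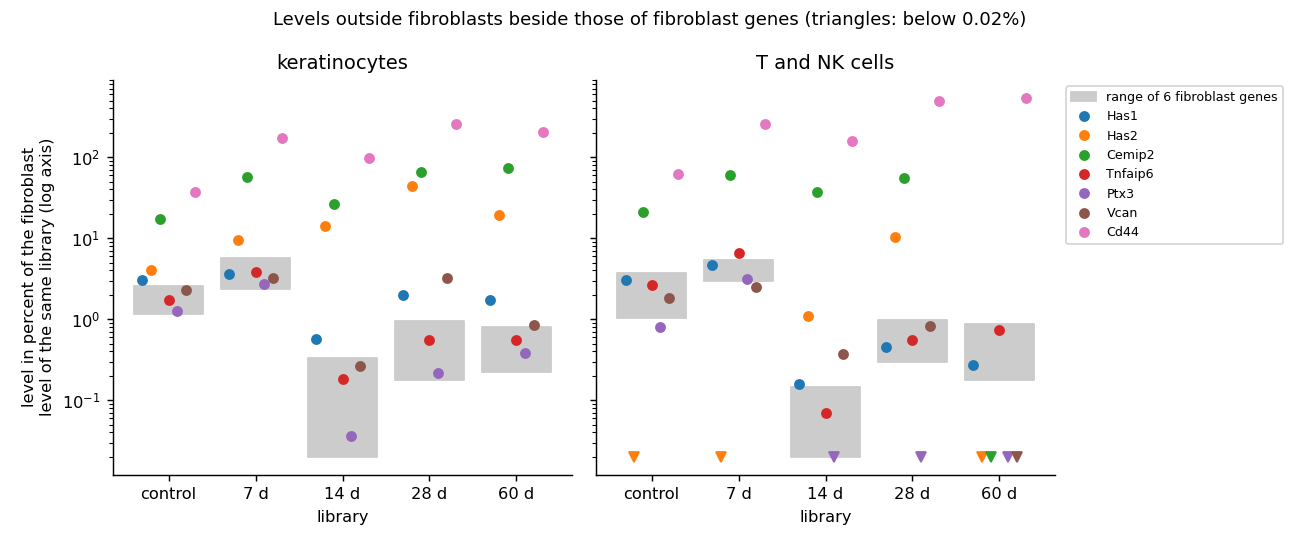
Level of each of the 7 genes in keratinocytes (left) and in T and NK cells (right) in percent of its fibroblast level in the same library (log axis), for control and 7, 14, 28 and 60 d. Grey boxes span the lowest to the highest of 6 fibroblast genes and triangles mark values below 0.02%; Tnfaip6 and Ptx3 lay inside the box in keratinocytes in all 5 libraries, and Cd44, Has2 and Cemip2 above it.

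Cemip2 in keratinocytes was at 15.0 CPM in control, 14.3 (7 d), 13.2 (14 d), 15.9 (28 d) and 7.97 (60 d). At 7 d the interval of its fold, 0.843 to 1.07, included 1, beside the 3.46-fold lower value in fibroblasts of the same library. Endothelial cells had the highest Cemip2 level of any class in control, at 172 CPM (142 to 206), followed by fibroblasts at 87.2 (84.1 to 90.2). It was at 97.8 CPM (7 d), 77.0 (14 d) and 111 (28 d) in endothelial cells, 1.75-, 2.23- and 1.55-fold below control. Fewer than 50 endothelial cells were found at 60 d, and that library was not used for the class. Ptx3 was also present there, at 253 CPM in control, 162 (7 d), 0 (14 d) and 135 (28 d). The 0 at 14 d came from 169 cells. With the 0 set to 3 UMIs the value was 85.4-fold lower than control, which is not a lower bound. At 28 d, 11.1% of 63 endothelial cells held all 50 Ptx3 UMIs. Few cells therefore set the endothelial Ptx3 values.

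**Figure D5:**
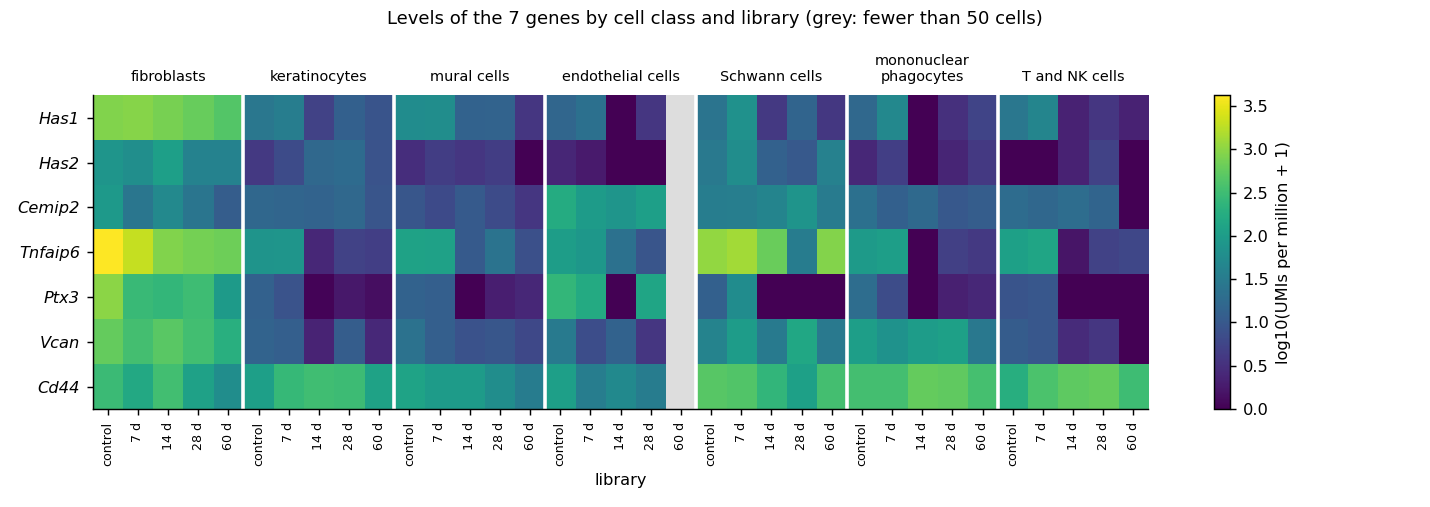
Levels of the 7 genes (rows) in 7 cell classes and the 5 libraries (columns: control, 7, 14, 28 and 60 d within each class), colour-coded as log10 of CPM plus 1. Grey marks a class with fewer than 50 cells; in control Tnfaip6 was highest in fibroblasts (4213 CPM) and next in Schwann cells (1075 CPM), and Cd44 was found in all classes.

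Across classes, Tnfaip6 in control was highest in fibroblasts (4213 CPM), followed by Schwann cells (1075 CPM, 978 to 1178). In Schwann cells it was at 25.5% of the fibroblast level, above the 1.58% to 24.3% of the 6 fibroblast genes (median 4.76%). In mural cells, T and NK cells, endothelial cells and phagocytes it was between 93.0 and 123 CPM, with overlapping intervals of neighbours. These values were 2.21% to 2.91% of the fibroblast level. Each lay inside the control range of the 6 genes in its own class. That range was 1.95% to 20.4% in mural cells and 1.04% to 3.75% in T and NK cells. It was 1.52% to 17.9% in endothelial cells and 1.32% to 2.31% in phagocytes. Whether these values were background was not tested. In Schwann cells, the glia of skin nerves, Tnfaip6 was at 1075 CPM in control, 1309.9 (7 d), 615 (14 d), 32.0 (28 d) and 905 (60 d). Only 7 UMIs, from 84 cells, stand behind the 28 d value, which was 33.6-fold below control (16.2 to 84.1), with 60 d again close to control (1.19-fold below, 1.05 to 1.34). At 28 d the level was 4.28% of that in fibroblasts, inside the 0.492% to 26.2% of the 6 genes (median 6.64%). Keratinocyte markers in the Schwann gate were at 4804 CPM at 28 d, at 1366 to 2642 CPM in the other irradiated libraries and at 1796 CPM in control, and their part was not tested. Under the stricter gate 19 of the 84 cells were left at 28 d and 38 of 84 in control, too few to compare. The fibroblast course, lower at every time, was thus not seen in Schwann cells, although the difference between the classes was not tested. The 60 d library also had 53 myoblasts, a class too small elsewhere, with Tnfaip6 at 292 CPM and Cd44 at 144 CPM.

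Schwann cells also carried Has2, at 28.5 CPM in control (12 UMIs), 59.1 at 7 d (39 UMIs), 12.2 at 14 d (4 UMIs), 9.13 at 28 d (2 UMIs) and 38.5 at 60 d (27 UMIs), of which the 14 and 28 d values were inside the range of the 6 fibroblast genes. In mural, endothelial, phagocyte and T and NK gates Has2 was at or below 4.12 CPM in every library. Has1 in Schwann and mural cells did not exceed that range of its class in any library, at 0.405% to 7.31% and 0.599% to 6.57% of its fibroblast level. That range reached 27.5% in Schwann cells (7 d) and 42.9% in mural cells (28 d), beside at most 5.70% in keratinocytes. It is thus a loose bound in these classes, and whether their Has1 was background was not tested. Vcan in phagocytes was above the range in all 5 libraries, at 106 CPM in control, 68.9 (7 d), 99.2 (14 d), 113 (28 d) and 27.6 (60 d). Between 6.42% and 18.2% of phagocytes held these UMIs. In mural cells Vcan was inside the range in all 5 libraries, at 22.4 CPM in control, 11.7 (7 d), 7.32 (14 d), 8.26 (28 d) and 5.02 (60 d), and at 28 d its log2 ratio of -1.44 turned to 1.94 when cells with markers of a second class were kept.

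Cd44 was found in all classes, with the highest control values in Schwann cells (474 CPM, 411 to 545), phagocytes (343, 317 to 370.0) and fibroblasts (298, 292 to 304). In T and NK cells it was at 185 CPM in control, 393 (7 d), 529 (14 d), 580.4 (28 d) and 318 (60 d), between 1.72- and 3.14-fold above control. In phagocytes it was at 343 CPM in control, 343 (7 d), 588 (14 d), 554 (28 d) and 354 (60 d), 1.71-fold (1.55 to 1.90) above control at 14 d. Leukocytes and keratinocytes therefore had their highest Cd44 values at 14 and 28 d. In mural cells it was at 126 CPM in control, 97.4 (7 d), 95.6 (14 d), 58.8 (28 d) and 32.4 (60 d). In endothelial cells it was at 109 CPM in control, 33.0 (7 d), 51.3 (14 d) and 32.5 (28 d), and in Schwann cells at 474, 432, 240.5, 114 and 349 CPM from control to 60 d. The mural and endothelial values at 14 d were 28.9% and 15.5% of the fibroblast level. Both were inside the range of the 6 fibroblast genes but above their medians of 2.57% and 0.548%. Vascular cells had no Cd44 value above control.

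The genes whose pattern over classes and libraries was most like each member were named by Pearson r of log2(CPM + 10) over 35 points, 1 per class and library, among 5875 genes, with the reservation that points of 1 library share its depth and background RNA and points of 1 class share its identity. Has1 was most like Lum (0.97), Adamts2 (0.97) and Pdgfrl (0.97), the first of which is also a marker of the fibroblast gate. Tnfaip6 was most like Postn (0.93), Lama2 (0.89) and Col3a1 (0.88), and Ptx3 most like Cthrc1 (0.92), Lrrn4cl (0.91) and Fndc1 (0.88). Has2 was most like Tspan11 (0.89), Thbs2 (0.88) and Col16a1 (0.87), and Vcan most like Dpp7 (0.91), C2 (0.89) and Serf1 (0.87). Cemip2 was most like Ptprm (0.87), Cldn11 (0.82) and Tcn2 (0.81), and Cd44 most like Srebf2 (0.77), Src (0.74) and Cotl1 (0.72). Among the members themselves Has1 and Ptx3 had the highest r (0.78), and Cd44 had r between -0.23 and 0.21 with the other 6.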

How the data were processed

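The authors deposited raw UMI counts per gene and cell barcode for each of the 5 libraries. The submitters' processing notes name Cell Ranger 5.0.0, STAR, Seurat 3.1.1 and the rat build Rnor_6.0. The study's methods describe sorting against debris and dead cells before capture, for skin taken after upper blepharoplasty. They do not say whether the rat skin was sorted. The members and lists were chosen with earlier results of these data known. Barcodes were kept that had 500 or more UMIs, 300 or more genes and no more than 20% mitochondrial UMIs. A class score was the mean of the 3 highest of its markers (log-scaled UMIs per 10000, relative to their 90th percentile), with at least 2 markers detected; cells whose second class reached 70% of the first stayed without a class, and no doublet caller was run. That threshold, and the rule that neutrophils need Csf3r or Cxcr2, were set after the data were seen. Of 86 marker symbols 82 were found. Classes with at least 50 cells in a library were used, and UMIs were summed per class and library. A gene was compared where the 2 libraries together held at least 50 UMIs, and a library at 0 was set to 3 UMIs. Because every group is 1 library, no p-value was computed. Named genes were all members, list genes past 2-fold with at least 50 CPM, and Has3, Hyal1, Hyal2 and Cemip. Alternatives changed the scaling, the cell filters, the gate, the weighting of cells and the count minimum. Promoters came from RefSeq (GRCr8). The ratio step was tested on simulated data. Python 3.11.15, numpy 2.4.6, scipy 1.17.1, pandas 2.3.3 and matplotlib 3.10.9 were used.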

Additional observations from a re-analysis of the deposited data

Results flagged for a closer look

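Cd44 moved past 2-fold in opposite directions in different cell classes of the same library, and the difference between the classes was not tested. At 7 d its log2 ratio to control was 1.27 in keratinocytes and 1.09 in T and NK cells, and -1.73 in endothelial cells. At 14 d it was 1.55 in keratinocytes and 1.51 in T and NK cells, and -1.09 in endothelial cells. This endothelial ratio came within 2-fold with median-ratio scaling (-0.95) and with cells weighted equally (-0.85). Without the 5% of cells with the most UMIs it was -0.96, also within 2-fold. The endothelial level at 14 d was 15.5% of that in fibroblasts, inside the 0% to 20.3% of the 6 fibroblast genes (median 0.548%). At 28 d the Cd44 log2 ratio was 1.48 in keratinocytes and 1.65 in T and NK cells, and -1.33 in fibroblasts, -1.10 in mural cells, -1.75 in endothelial cells and -2.06 in Schwann cells. The mural ratio came within 2-fold when cells with markers of a second class were kept (-0.62). It also did so without the 5% of cells with the most UMIs (-0.97). The Schwann value rests on 84 cells, of which the stricter gate left 19, and keratinocyte markers in that gate were at 4804 CPM. Each value compares 1 library with 1 library.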

How the results depend on the processing

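Over the alternatives listed in the methods, 879 of 917 member ratios in 7 classes stayed on the same side of 2-fold and 38 did not. The count minimum, which changes no ratio, was left out. Turns of direction were counted only for ratios past 2-fold whose interval excluded no change. Among these 1 turned, Vcan in mural cells at 28 d. Its log2 ratio was -1.44, and 1.94 when cells with markers of a second class were kept. In fibroblasts 214 of 224 stayed on their side of 2-fold, and 0 turned among those counted for direction. The 10 that crossed it were Cd44 at 7 d, Has2 at 28 and 60 d and Has1 at 60 d with median-ratio scaling, Has2 and Vcan at 28 d without the 5% of cells with the most UMIs (-1.09 and -1.12), and Cemip2 at 14 d (-1.02), Has2 and Vcan at 28 d (-1.05 and -1.09) and Has1 at 60 d (-1.03) with cells weighted equally. With cells of a second class kept, 2 members were at least 2-fold higher in keratinocytes at 7 d in place of 1, and 0 at 60 d in place of 1, because Has2 crossed 2-fold at both times (1.13 and 0.96). Has1 in keratinocytes at 28 d was at -0.95 with median-ratio scaling. In endothelial cells Tnfaip6 at 7 d, a level inside the range of background RNA, was at -0.32, and at -1.03 to -1.28 under 3 of the cell filters. The causes were not tested. No paired analysis was possible because each group is 1 library. The number of cells limits the 14 d fibroblasts: 71 cells held 28 Cemip2 and 62 Has2 UMIs.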
